A study of Homo sapiens with 6 samples.

Results

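Integrins, hemidesmosome components and basement membrane proteins were described at the transcript level in HaCaT cells, an immortalised line of human keratinocytes. The 35 genes were taken by symbol from a table of 27945 genes and kept where they reached at least 1 RPKM (reads per kilobase of transcript, scaled to library size) in at least 1 library. All 35 of the 35 listed symbols were in the table and passed, among 12925 genes that did so. None had to pass through 1 group alone: COL4A6, the lowest, lay between 1.05 and 2.35 RPKM.

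The study sequenced poly-A RNA of wild-type cells and of cells labelled as knockout for p38α, the stress-activated kinase encoded by MAPK14. Each genotype received PBS or IL-1α in PBS for 4 h, both in serum-containing DMEM. IL-1α is an epidermal alarm cytokine that signals to NF-κB and the stress kinases. There was 1 PBS library and there were 2 IL-1α libraries per genotype, 6 libraries in 4 groups. The labels do not say whether the knockout is 1 clone or a pool, what edit was made, or whether the IL-1α replicates came from separate cultures. The p-values below therefore measure the spread between these libraries, which may be technical.

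Basal keratinocytes sit on a basement membrane of laminins, type IV collagens, nidogens and heparan sulfate proteoglycans. Integrins, which are dimers of an alpha and a beta chain, hold the cell to it in 2 ways. In the hemidesmosome, the ITGA6 and ITGB4 dimer and the transmembrane collagen COL17A1 connect the laminin that holds the LAMA3 and LAMB3 chains to keratin filaments through PLEC and DST. In focal adhesions, dimers of ITGB1 or ITGAV connect matrix to actin through talin and the kindlins. During wound repair keratinocytes leave the hemidesmosomal mode and meet a provisional matrix that holds fibronectin, tenascin C and thrombospondin.

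Depth, recovered from the values, was 16294053 to 34967685 reads per library, of which 80.1% to 83.2% lay in the listed genes. The least covered member value rested on 115 reads. MAPK14 stood at 14.4 RPKM in wild type with PBS and at 13.3 and 14.8 with IL-1α, against 11.3 in the knockout with PBS and 10.99 and 7.41 with IL-1α. The genotypes did not overlap, but the knockout libraries still held MAPK14 transcript, and exon-wide counts do not check an edit whose position is unknown. All 12 keratinocyte markers reached 1 RPKM. Their summed level was 6501 to 7650 RPKM in the wild-type libraries and 3815 to 4713 RPKM in the knockout libraries, without overlap. The most abundant markers weigh most in this sum. With PBS, KRT17 stood at 2245 RPKM in wild type and 778 in the knockout, and KRT14 at 1878 and 1171. TP63 went the other way, at 26.6 and 42.8 RPKM. In the knockout 4 of the 12 markers were higher and 8 lower with PBS, and 2 higher and 10 lower under IL-1α. Of the markers of other cell types, 2 of 10 fibroblast, 1 of 8 endothelial (CDH5), 1 of 8 leukocyte (CD68) and 1 of 6 melanocyte (MITF) genes reached 1 RPKM. The summed fibroblast level was 0.865 to 2.63 RPKM, the endothelial 1.83 to 11.99, the leukocyte 4.95 to 14.95 and the melanocyte 2.98 to 4.81, and PECAM1, TEK, LYZ, FCGR3A and TYR were listed at 0 in every library.

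The knockout IL-1α replicates stood further apart than the wild-type pair. They differed by at least 1.5-fold for 8 members (ITGA5, COL4A6, NID1, NID2, AGRN, FN1, TNC and SPARC), where 19.8% of all genes did so. In the wild-type pair 1 member, ITGB8, did so, against 9.71% of all genes. Differences of 2-fold or more between the knockout replicates were found for COL4A6, NID2, TNC and SPARC (7.66% of all genes), and between the wild-type replicates for 0 members (2.79%). For part of the named differences, the value with 1 IL-1α library left out is given below or in the closing limits. It is not given there for all that moved by over 1.5 times. In the knockout response, LAMB3 (0.44) was 0.18 without replicate 2 and 0.71 without replicate 1. ITGB6 (0.60) was 0.86 without replicate 2 and 0.34 without replicate 1. CD151 (-0.22) was -0.04 without replicate 2 and -0.395 without replicate 1. For genes outside the 35 no such value is given.

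**Figure D1:**
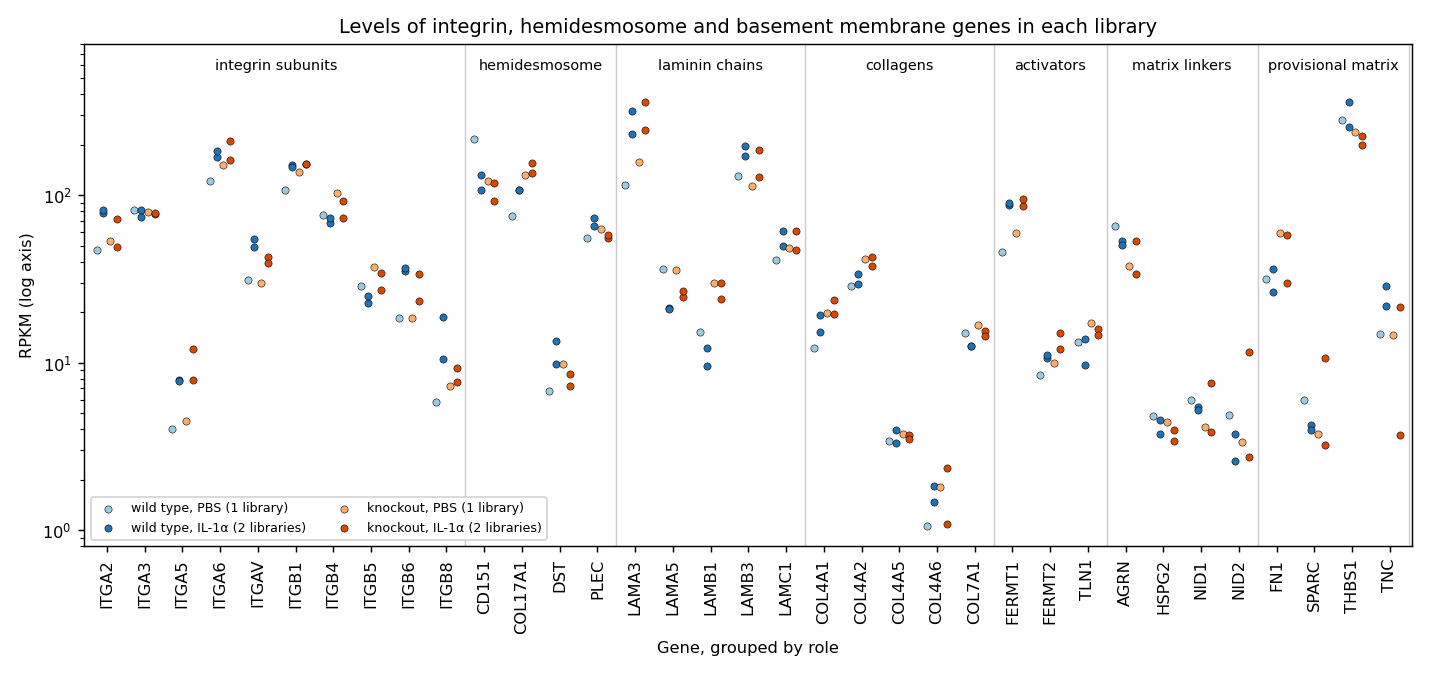
Transcript level of each of the 35 genes in RPKM (log axis) in the 6 libraries, grouped by role; each point is 1 library. LAMA3 and ITGA5 lie higher with IL-1α than with PBS in both genotypes, LAMB1 lies higher in all 3 knockout libraries than in all 3 wild-type libraries, and TNC, NID2 and SPARC are widely split between the knockout IL-1α libraries.

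THBS1, LAMA3, ITGA6, LAMB3 and ITGB1 were the most abundant members, with means over the 6 libraries of 259.5, 238, 167, 154 and 142 RPKM. Over the libraries the ranges of neighbours among these 5 overlapped, for example 198.5 to 359 RPKM for THBS1 and 114 to 358 for LAMA3. At the low end stood HSPG2, COL4A5 and COL4A6 with means of 4.14, 3.61 and 1.60 RPKM. The median member had a mean of 29.1 RPKM, against 9.10 RPKM for all genes tested. LAMA3, LAMB3 and ITGA6 were thus far above the type IV collagen chains per transcript length.

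No member passed an adjusted p of 0.05 in limma in any of the 4 contrasts tested, and none passed with voom on recovered reads. The share of all genes that passed was 0.217% for the IL-1α response in wild type, 0.0696% for that in the knockout, 0.155% between the genotypes in the presence of IL-1α and 0.0% for the interaction of genotype and IL-1α. The values below are therefore differences between these libraries. At an unadjusted p below 0.05 the wild-type response held 12 members, 10 higher and 2 lower with IL-1α. Of all genes, 18.1% met that threshold, 4.69% higher and 13.4% lower. The 10 higher members were FERMT1, LAMA3, ITGAV, ITGB6, ITGB8, ITGA5, ITGA2, DST, COL17A1 and ITGB1, and the 2 lower were LAMA5 and CD151. In the knockout 4 members met it (3.58% of all genes), ITGA5, FERMT1 and LAMA3 higher (2.53% of all genes) and LAMA5 lower (1.05%). Without knockout replicate 2 the wild-type count was 13 (23.4% of all genes) and the knockout count 5 (3.91%).

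Both wild-type IL-1α libraries lay above the PBS library for 19 members (27.5% of all genes) and both below it for 12 (54.3% of all genes). In the knockout both lay above for 11 (27.8%) and below for 14 (36.4%). The median log2 difference of the members on the log2(RPKM + 0.5) scale was 0.31 in wild type, where that of all genes was -0.14, and 0.12 in the knockout, where that of all genes was -0.02. The knockout median was below 0 with either of its IL-1α libraries left out, at -0.01 without replicate 1 and -0.04 without replicate 2. The difference had the same sign in both genotypes for 24 of the 35 members, 14 above 0 and 10 below 0. For all genes that share was 64.0%. Across the 35 genes the wild-type and knockout differences correlated with Pearson's r of 0.417 and Spearman's rho of 0.41, as a description over genes measured in the same 6 libraries. DST and PLEC had both IL-1α libraries above PBS in wild type and both below PBS in the knockout. The share of all genes with this pattern was not counted. With the trend in transcript length described below removed, their wild-type differences were 0.47 for DST (0.72 before) and 0.06 for PLEC (0.31 before).

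**Figure D2:**
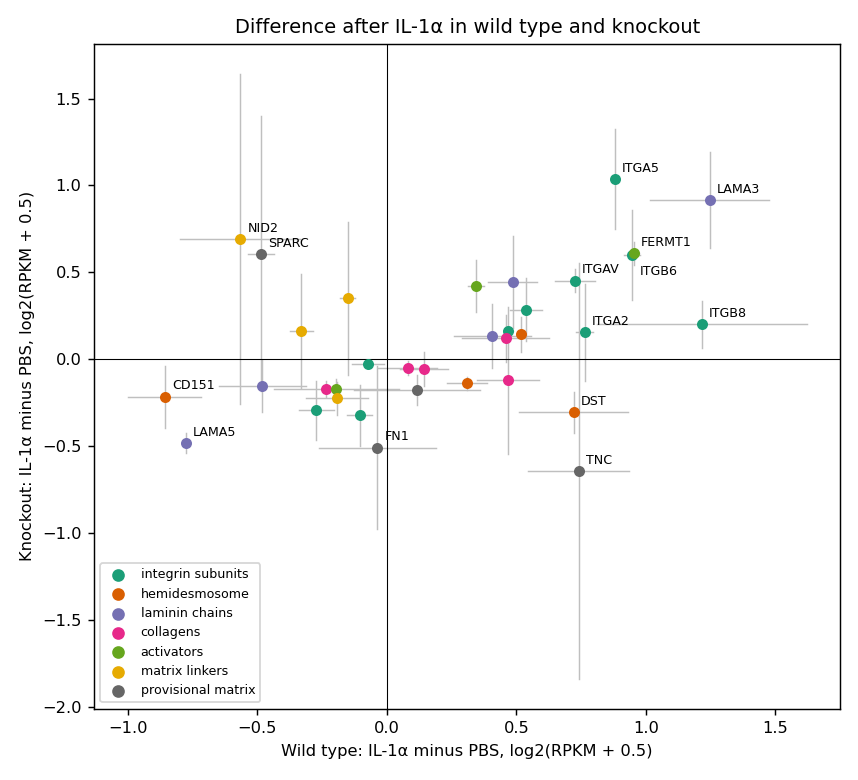
Difference between IL-1α and PBS in log2(RPKM + 0.5) in wild type (x axis) and in the knockout (y axis); each point is the mean difference of 1 gene, coloured by role, and grey lines span the differences of the 2 IL-1α libraries from the 1 PBS library. ITGA5, LAMA3, FERMT1 and ITGB6 lie at the upper right, LAMA5 and CD151 at the lower left, and the long vertical lines of TNC, NID2 and SPARC show the split between the knockout replicates.

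Transcript length has to be read beside the wild-type numbers. The median member was 6413 bases long against 2622 bases for all genes tested, and 34 of the 35 were longer than that median, CD151 being the exception. In wild type the median difference after IL-1α went from -0.55 in the shortest of 10 equal length classes of all genes to 0.17 in the longest class, which held 18 members. In the knockout it stayed between -0.05 and 0.00 over the 10 length classes. For knockout against wild type it went, from shortest to longest class, from -0.54 to 0.34 with PBS and from -0.02 to 0.17 under IL-1α. The wild-type response and the PBS comparison share the single wild-type PBS library, and its part in the trend was not tested. With a length trend removed from each library, the members' median in wild type was 0.06 (all genes -0.03) and in the knockout 0.13. In that setting 8 members were higher and 3 lower in wild type at an unadjusted p below 0.05, against 7.4% and 6.48% of all genes. In the knockout 5 were higher and 0 lower, against 3.09% and 1.34% of all genes.

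**Figure D3:**
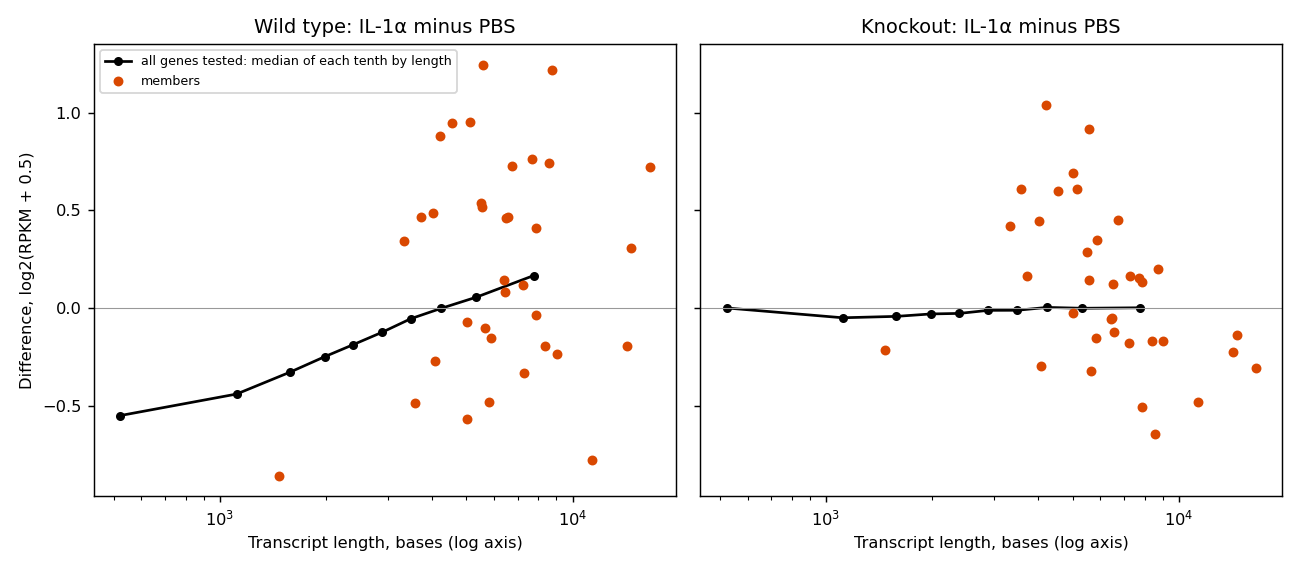
Difference between IL-1α and PBS in log2(RPKM + 0.5) against transcript length in bases (log axis), wild type at the left and knockout at the right; red points are the 35 members and the black line joins the medians of all genes tested in 10 equal classes of length. The line climbs from -0.55 to 0.17 in wild type and is level in the knockout.

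Among the 10 integrin subunits, 7 had a higher mean with IL-1α in each genotype, where 37.0% of all genes did in wild type and 47.2% in the knockout. The median log2 difference of these 10 was 0.63 in wild type, or 0.54 with the length trend removed, and 0.18 in the knockout. Integrin subunits outside this group differed. Of the 4 that were expressed, 1 was above 0 in wild type and 2 in the knockout, with medians of -0.54 and -0.08. The alpha chain ITGA5, which pairs with ITGB1 as the fibronectin receptor, stood at 4.01 RPKM in wild type with PBS and at 7.84 and 7.75 with IL-1α. The knockout libraries held 4.50 with PBS and at 7.90 and 12.01 with IL-1α. All 4 IL-1α libraries thus lay above both PBS libraries. The log2 difference was 0.88 (SE 0.28, adjusted p = 0.206) in wild type and 1.04 (SE 0.28, adjusted p = 0.816) in the knockout.

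ITGB6, which pairs with ITGAV to bind latent TGF-β and is a feature of wound-edge epithelium, stood at 18.5 RPKM in wild type with PBS and at 35.3 and 36.9 with IL-1α. The knockout libraries held 18.4 with PBS and 33.8 and 23.4 with IL-1α. The PBS libraries were nearly equal, and the wild-type IL-1α libraries lay above the knockout ones. The log2 difference after IL-1α was 0.95 (SE 0.25, adjusted p = 0.165) in wild type and 0.60 in the knockout. The knockout value was 0.86 without its replicate 2 and 0.34 without its replicate 1. ITGAV itself stood at 31.0 RPKM and then 48.9 and 54.4 in wild type, against 29.8 and then 42.9 and 39.1 in the knockout, the PBS library being named before the IL-1α libraries here and below. It showed the same order as ITGB6, with PBS libraries alike and knockout IL-1α libraries below the wild-type ones (log2 difference -0.33, adjusted p = 0.381).

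ITGB8, the other ITGAV partner that binds latent TGF-β, stood at 5.78 RPKM in wild type with PBS and at 10.5 and 18.8 with IL-1α, against 7.26 with PBS and 9.30 and 7.62 with IL-1α in the knockout. Its wild-type replicates were the only ones among the members to differ by over 1.5-fold. The log2 difference was 1.22 (SE 0.35, adjusted p = 0.181) in wild type and 0.20 in the knockout. Under IL-1α the knockout libraries lay below the wild-type libraries by -0.71 (SE 0.29, adjusted p = 0.331), a value of -0.31 without wild-type replicate 2 and -1.11 without wild-type replicate 1, and the difference between the responses was -1.01 (SE 0.50, adjusted p = 0.966). LOC101927811, an entry on the opposite strand at this locus, stood at 2.07 to 6.19 RPKM, and whether the authors counted by strand is not given in the sources used here.

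ITGA2, the collagen-binding partner of ITGB1, stood at 46.7 RPKM in wild type with PBS and at 78.0 and 81.4 with IL-1α. In the knockout it stood at 53.2 with PBS and at 72.0 and 48.8 with IL-1α, so that 1 IL-1α library lay above PBS and the other below it. The difference between the genotypes under IL-1α was -0.42 (SE 0.22, adjusted p = 0.409), with -0.14 when knockout replicate 2 was left out and -0.70 when replicate 1 was. ITGB4, the hemidesmosomal beta chain, was lower with IL-1α where its partner ITGA6 was higher. It stood at 76.1 RPKM in wild type with PBS and at 68.4 and 73.1 with IL-1α, and at 103 in the knockout with PBS and 92.8 and 72.9 with IL-1α (log2 difference -0.32, SE 0.22, adjusted p = 1.0, and -0.15 without knockout replicate 2). ITGA6 stood at 122 and then 169 and 184 RPKM in wild type, against 152 and then 163 and 210.1 in the knockout. The common beta chain ITGB1 had log2 differences after IL-1α of 0.47 in wild type and 0.16 in the knockout. ITGA3, the laminin-binding partner of ITGB1, varied least of all integrins, between 74.4 and 81.9 RPKM over the 6 libraries. ITGB5, a vitronectin-binding chain, had log2 differences of -0.27 and -0.30.

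The 4 hemidesmosome genes outside the integrins split. The tetraspanin CD151, a partner of laminin-binding integrins, stood at 216 RPKM in wild type with PBS and at 131 and 108 with IL-1α. The knockout values were 121 with PBS and 118 and 92.1 with IL-1α. The wild-type PBS library alone was high, and the other 5 libraries lay within 92.1 to 131 RPKM. The log2 difference after IL-1α was -0.86 (SE 0.24, adjusted p = 0.177) in wild type and -0.22 in the knockout. CD151 is the shortest member at 1473 bases, and with the length trend removed its wild-type difference was -0.56. The wild-type value rests on that single PBS library, which has no replicate.

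COL17A1, the transmembrane collagen of the hemidesmosome, stood at 74.6 RPKM in wild type with PBS and at 107 in each of the 2 IL-1α libraries. The knockout values were 131 with PBS and 135 and 155 with IL-1α. All 3 knockout libraries lay above all 3 wild-type libraries. The difference between the genotypes was 0.44 (SE 0.16, adjusted p = 0.303) under IL-1α and 0.81 with PBS. With the length trend removed the value under IL-1α was 0.28. DST, the plakin that holds keratin filaments to COL17A1 and ITGB4, stood at 6.77 RPKM in wild type with PBS and at 9.86 and 13.4 with IL-1α, and at 9.82 in the knockout with PBS and 8.57 and 7.19 with IL-1α. It had the smallest interaction p among the members, with a difference between the responses of -1.03 (SE 0.36, unadjusted p = 0.0288, adjusted p = 0.966), and was the only member under an unadjusted p of 0.05 there (4.39% of all genes, 0.627% in this direction). Without knockout replicate 2 no member was (0, against 4.86% of all genes). With the length trend removed the difference between the responses was -0.71. In that setting 1 member was lower at an unadjusted p below 0.05 for the interaction, against 1.64% of all genes. Under IL-1α the knockout libraries lay below the wild-type ones by -0.52 (SE 0.21, adjusted p = 0.329), or -0.31 without wild-type replicate 2. DST, at 16556 bases, is the longest member. The table has 1 line for this gene, so its transcript forms were not told apart, the keratin-linking form included. PLEC, the other plakin, lay between 55.1 and 73.0 RPKM, with log2 differences after IL-1α of 0.31 in wild type and -0.14 in the knockout.

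Of the laminin chains, LAMA3 and LAMB3 of the hemidesmosomal trimer had higher means with IL-1α in both genotypes. LAMA5 and LAMB1 of the general basement membrane trimers had lower means, while the common gamma chain LAMC1 had higher means in both. For LAMB1 in the knockout the log2 difference was only -0.15 (SE 0.24), and -0.0073 without replicate 1. No chain passed the test. LAMA3, the alpha chain of the hemidesmosomal laminin (hg19 chr18:21452984-21535029), stood at 114 RPKM in wild type with PBS and at 232 and 319 with IL-1α. Knockout levels were 157 with PBS and 245 and 358 with IL-1α. Every IL-1α library was above every PBS library, and the genotypes overlapped under IL-1α. The log2 difference was 1.25 (SE 0.315, adjusted p = 0.155) in wild type and 0.92 (SE 0.315, adjusted p = 1.0) in the knockout. LAMA5, the alpha chain of the widely distributed basement membrane laminins (hg19 chr20:60884116-60942368), was lower with IL-1α. It stood at 36.4 RPKM in wild type with PBS and at 21.2 and 20.8 with IL-1α, and at 35.9 in the knockout with PBS and 24.5 and 26.6 with IL-1α. The log2 difference was -0.78 (SE 0.18, adjusted p = 0.146) in wild type and -0.48 (SE 0.18, adjusted p = 1.0) in the knockout. An opposite-strand entry, LAMA5-AS1, stood at 1.45 to 4.45 RPKM.

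The beta chain LAMB3 stood at 131 and then 196 and 171 RPKM in wild type, against 114 and then 129 and 186 in the knockout. Its log2 differences of 0.49 and 0.44 were smaller than those of LAMA3 in both genotypes. Per transcript length the ratio of LAMA3 to LAMA5 was 3.15 with PBS and 10.9 and 15.3 with IL-1α in wild type, and 4.37 with PBS and 9.99 and 13.5 with IL-1α in the knockout. LAMC1, the common gamma chain, had log2 differences of 0.41 in wild type and 0.13 in the knockout.

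LAMB1, the beta chain of the general basement membrane laminins (hg19 chr7:107564246-107643804), gave the smallest p between the genotypes. It stood at 15.2 RPKM in wild type with PBS and at 9.52 and 12.2 with IL-1α, and at 29.9 in the knockout with PBS and 24.1 and 29.7 with IL-1α. All 3 knockout libraries lay above all 3 wild-type libraries, whatever the stimulus. Under IL-1α the difference was 1.28 (SE 0.20, unadjusted p = 0.000541, adjusted p = 0.0965). Among the 9272 genes that reached 5 RPKM the adjusted p was 0.0234, and over all settings tried it lay between 0.0234 and 0.932 while the difference lay between 1.11 and 1.44. With PBS the difference was 0.95, a ratio of recovered reads of 1.96 (exact 95% counting interval 1.85 to 2.08). The ratio of LAMB3 to LAMB1 was 8.58 with PBS and 20.5 and 14.1 with IL-1α in wild type, and 3.82 with PBS and 5.35 and 6.27 with IL-1α in the knockout. Between the genotypes it did not overlap. The summed keratinocyte markers, given above, separated the genotypes in the opposite direction, and their part in this difference was not tested.

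The sequence before the annotated start of these 3 laminin genes is shown because LAMA3 and LAMA5 had the largest opposite differences after IL-1α among the laminins and LAMB1 the largest between the genotypes. They were chosen after their values were seen. The sequences are RefSeq's, on GRCh38.p14, written 5′ to 3′ on the gene's strand. Capitals mark matches, on either strand, to the AP-1 motif TGANTCA or the GC box GGGCGG. LAMA3 is given from chr18:23872770-23872839 on the plus strand, with the neighbourhoods of its AP-1 matches at chr18:23872885-23872911 and chr18:23872941-23872967. LAMA5 is given from chr20:62367313-62367562 and LAMB1 from chr7:108003256-108003411, both on the minus strand.
LAMA3, upstream stretch: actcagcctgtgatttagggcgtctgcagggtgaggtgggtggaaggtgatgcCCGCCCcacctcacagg
LAMA3, AP-1 match 1: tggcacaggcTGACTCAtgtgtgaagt
LAMA3, AP-1 match 2: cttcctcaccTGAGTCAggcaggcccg
LAMA5, upstream stretch: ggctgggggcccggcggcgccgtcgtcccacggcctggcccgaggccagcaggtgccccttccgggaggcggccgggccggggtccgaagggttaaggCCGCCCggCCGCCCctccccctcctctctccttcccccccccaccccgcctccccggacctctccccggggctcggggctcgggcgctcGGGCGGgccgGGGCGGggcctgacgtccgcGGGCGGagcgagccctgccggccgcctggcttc
LAMB1, upstream stretch: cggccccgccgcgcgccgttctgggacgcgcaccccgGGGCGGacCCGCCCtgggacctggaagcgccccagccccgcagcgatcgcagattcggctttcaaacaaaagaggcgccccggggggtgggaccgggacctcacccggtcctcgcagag
In the 250 bases before the RefSeq start, the AP-1 motif was found in 6.6% of 27305 promoters and in 1 of the 29 members with an entry. That member was LAMA3, whose 2 matches begin 125 and 69 bases before the start. GENCODE places another LAMA3 start 180 bases further upstream, so both matches lie inside a transcript of that annotation. The GC box was found in 42.3% of promoters and in 22 members, with 1 match in LAMA3, 5 in LAMA5 and 4 in LAMB1, 2 of which are in the stretch shown. The cyclic AMP response element TGACGTCA was found in 1.77% of promoters and 1 member, the NF-κB motif in 5.05% and 3 members, and the TATA box TATAAA in 11.1% and 3 members. None of these 3 was found in LAMA3, LAMA5 or LAMB1. The motifs do not overlap one another in the stretches shown, and a match is a description of letters, not of binding.

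The 5 collagens outside the hemidesmosome included 2 neighbouring pairs. COL4A1 and COL4A2, which form the ubiquitous type IV collagen trimer, lie head to head 109 bases apart on chromosome 13, and COL4A6 and COL4A5 lie head to head 346 bases apart on chromosome X (hg19). COL4A1 stood at 12.3 RPKM and then 15.1 and 19.2 in wild type, against 19.8 and then 23.8 and 19.6 in the knockout. COL4A2 stood at 28.6 and then 29.6 and 33.8 in wild type, against 41.8 and then 43.0 and 37.5 in the knockout. For both genes all 3 knockout libraries lay above all 3 wild-type libraries, with differences under IL-1α of 0.33 and 0.34 (adjusted p = 0.388 for COL4A2). With the length trend removed the COL4A2 difference was 0.17. The ratio of COL4A2 to COL4A1 stayed between 1.76 and 2.33 over the 6 libraries. COL4A5 lay between 3.33 and 3.98 RPKM, and COL4A6 between 1.05 and 2.35, a range that its knockout IL-1α replicates nearly spanned (2.35 and 1.08 RPKM). COL7A1, the anchoring fibril collagen, lay between 12.6 and 16.9 RPKM with its knockout IL-1α libraries above its wild-type ones.

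FERMT1, or kindlin-1, activates integrins in keratinocytes and is the gene of Kindler syndrome. It stood at 45.8 RPKM in wild type with PBS and at 87.7 and 90.4 with IL-1α, and at 59.2 in the knockout with PBS and 86.5 and 94.9 with IL-1α. The 4 IL-1α libraries lay within 86.5 to 94.9 RPKM, above both PBS libraries, and the genotypes overlapped. It had the smallest wild-type p of the members, with a log2 difference of 0.95 (SE 0.19, unadjusted p = 0.00197, adjusted p = 0.120) in wild type and 0.61 (SE 0.19, adjusted p = 0.943) in the knockout. The lowest adjusted p over the settings tried was 0.0668. FERMT2, or kindlin-2, had log2 differences of 0.35 and 0.42 at 8.47 to 15.0 RPKM. TLN1, the talin that joins integrin tails to actin, lay at 9.72 to 13.8 RPKM in the wild-type libraries, without overlap with the knockout libraries at 14.7 to 17.3 RPKM. Its difference between the genotypes was 0.39 (SE 0.21, adjusted p = 0.428) under IL-1α and 0.36 with PBS. With the length trend removed these were 0.20 and -0.0045. CREB3 overlaps TLN1 on the opposite strand and stood at 10.7 to 13.0 RPKM.

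The 4 genes that link laminin and collagen networks, AGRN, HSPG2, NID1 and NID2, all stood lower with IL-1α in wild type, with log2 differences from -0.57 to -0.15, while 37.0% of all genes were above 0 there. In the knockout 3 of the 4 had a mean above PBS, which rested on replicate 2. AGRN, a heparan sulfate proteoglycan, stood at 65.2 RPKM in wild type with PBS and at 53.4 and 50.2 with IL-1α, and at 37.8 in the knockout with PBS and 33.6 and 53.2 with IL-1α. The wild-type difference after IL-1α was -0.33, and knockout replicate 2 lay within the wild-type IL-1α range. NID2, a nidogen, stood at 4.86 RPKM and then 2.58 and 3.75 in wild type, against 3.37 and then 2.74 and 11.6 in the knockout. Its knockout response was 0.69, and -0.26 without replicate 2. Its difference between the genotypes under IL-1α was 0.79, or -0.16 without replicate 2. NID1 showed the same split, at 3.87 and 7.52 RPKM after IL-1α in the knockout. HSPG2, or perlecan, lay between 3.42 and 4.78 RPKM.

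Of the provisional and matricellular proteins, TNC was split most. This tenascin, which accumulates in healing and inflamed skin, stood at 14.7 RPKM in wild type with PBS and at 21.7 and 28.7 with IL-1α. In the knockout it stood at 14.5 with PBS and at 21.5 and 3.70 with IL-1α. Knockout replicate 1 was close to the lower wild-type IL-1α library and replicate 2 was below every other library. The mean difference between the genotypes under IL-1α was -1.41 (SE 0.70, adjusted p = 0.401), and -0.21 without replicate 2. The knockout response was -0.64 with that library and 0.55 without it.

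FN1, or fibronectin, stood at 31.6 RPKM in wild type with PBS and at 26.3 and 36.1 with IL-1α, and at 59.6 in the knockout with PBS and 58.0 and 30.04 with IL-1α. The knockout PBS library and replicate 1 were high, and replicate 2 lay within the wild-type range. The difference between the genotypes was 0.43 (SE 0.33, adjusted p = 0.567) under IL-1α, 0.90 without replicate 2 and -0.04 without replicate 1. SPARC, a collagen-binding matricellular protein, stood at 5.93 RPKM and then 4.25 and 3.94 in wild type, against 3.74 and then 3.23 and 10.7 in the knockout. The value of 10.7 RPKM set its knockout response of 0.61 and its genotype difference of 0.49, which were -0.19 and -0.30 without that library. THBS1, or thrombospondin-1, stood at 279.9 RPKM in wild type with PBS and at 256 and 359 with IL-1α, and at 239 in the knockout with PBS and 199 and 224 with IL-1α. It was the only member whose 3 knockout libraries all lay below the 3 wild-type libraries (8.86% of all genes), with a difference under IL-1α of -0.52 (SE 0.22, adjusted p = 0.337), or -0.28 without wild-type replicate 2.

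**Figure D4:**
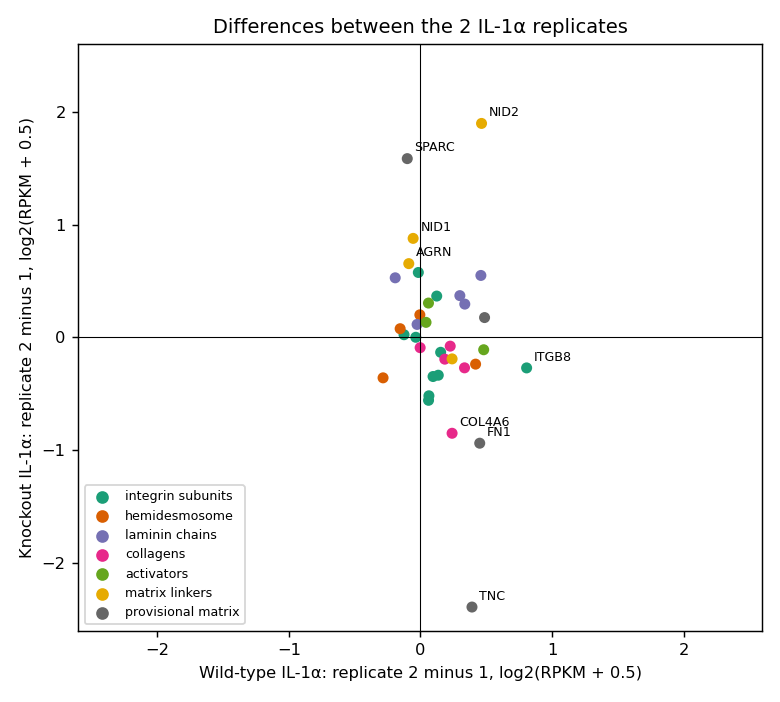
Difference between replicate 2 and replicate 1 of the IL-1α libraries in log2(RPKM + 0.5), wild type on the x axis and knockout on the y axis; each point is 1 gene, coloured by role. TNC (-2.39), FN1 and COL4A6 lie low and NID2 (1.90), SPARC (1.58), NID1 and AGRN high on the knockout axis, while ITGB8 lies furthest out on the wild-type axis (0.81).

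Between the genotypes under IL-1α, the knockout libraries lay above the wild-type libraries without overlap for 11 members (32.4% of all genes) and below them for 8 (16.3%). At an unadjusted p below 0.05 stood 4 members (14.9% of all genes), LAMB1 and COL17A1 higher (9.97% of all genes) and DST and ITGB8 lower (4.93%). Leaving out knockout replicate 2 also gave 4, against 16.4% of all genes. The members' median difference was 0.03, where that of all genes was 0.09, with -0.04 when knockout replicate 2 was left out and -0.13 with the length trend removed. In that setting 1 member was higher and 6 were lower at an unadjusted p below 0.05, against 7.98% and 8.23% of all genes. The 5 members with all 3 knockout libraries above all 3 wild-type libraries were COL17A1, COL4A1, COL4A2, LAMB1 and TLN1 (15.7% of all genes). Without overlap, the 11 higher members make up 31.4% of the group, near the share of all genes, and the 8 lower members 22.9%.

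With PBS, where each genotype had 1 library and only fold differences were taken, 0 of the 35 members differed by 2-fold or more (6.53% of all genes). The highest ratios of recovered reads, knockout over wild type, were those of LAMB1 given above, FN1 at 1.885 (exact 95% counting interval 1.82 to 1.95) and COL17A1 at 1.76 (1.71 to 1.81). COL4A6, with the fewest reads, stood at 1.73 (1.40 to 2.14). The lowest were CD151 at 0.563 (0.542 to 0.584), AGRN at 0.579 (0.562 to 0.597) and SPARC at 0.631 (0.548 to 0.726). All 4 linkers were lower and all 5 collagens higher in the knockout library, although 3 of the 5 collagens were higher with the length trend removed. Of all genes, 48.5% were higher in that library, and 49.1% with the length trend removed. The intervals cover counting error only, and the ratios keep the length trend. With it removed, the log2 differences were 0.70 for LAMB1 (0.95 before), 0.55 for FN1 (0.90), 0.57 for COL17A1 (0.81) and 0.28 for COL4A6 (0.58). Those of CD151, AGRN and SPARC were -0.60 (-0.83 before), -1.11 (-0.78) and -0.70 (-0.60).

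**Figure D5:**
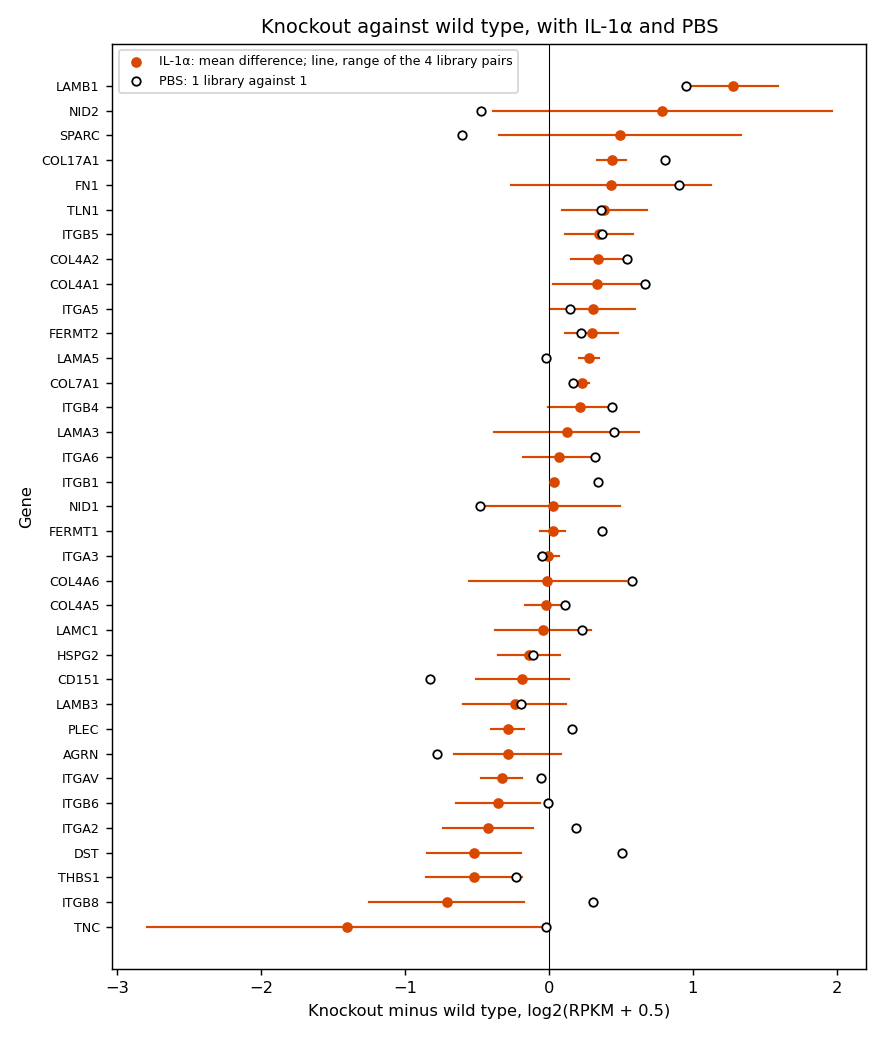
Difference of knockout minus wild type in log2(RPKM + 0.5) for each of the 35 genes; red points are means under IL-1α with lines over the 4 pairs of libraries, and open points compare the single PBS libraries. LAMB1 lies highest at 1.28 under IL-1α and 0.95 with PBS, and TNC lowest at -1.41 under IL-1α with the widest line.

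The genes around this group did not pass the test either. Of 15 further integrin subunits 4 were expressed, of 50 further matrix genes 30, and of 50 adhesion adaptors, plakins and filament partners 43 (49 were in the table), and 0 of each passed an adjusted p of 0.05 in any contrast. At an unadjusted p below 0.05, 9 of the 30 matrix genes were higher and 1 lower in the knockout under IL-1α, where 9.97% and 4.93% of all genes were. For the 43 adaptors the counts were 3 and 4. TGFBI, a matrix protein that binds collagens and integrins, stood at 153 RPKM and then 114 and 122 in wild type, against 270.0 and then 246 and 165 in the knockout (difference under IL-1α 0.77, adjusted p = 0.234). CYR61, an integrin-binding matricellular protein, stood at 33.7 RPKM and then 57.6 and 46.4 in wild type, against 19.9 and then 22.2 and 41.1 in the knockout (-0.76, adjusted p = 0.323). The talin-binding KANK2 differed by 0.75 (adjusted p = 0.232), the spectraplakin MACF1, a relative of DST, by -0.70 (adjusted p = 0.257), and ITGA4, the alpha chain that binds VCAM1, by 0.69 (adjusted p = 0.363). In these bulk libraries fewer cells of a state and less RNA per cell cannot be told apart.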

How the data were processed

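The deposited table had 1 column for each of the 6 libraries. Per the submitters' processing notes, reads were handled with bcl2fastq (2.20.0.422), STAR and HOMER on the hg19 build; per the file headers the authors deposited RPKM values over exons, 1 line per gene. The strand setting is not given in the sources used here. Whole reads were recovered from the RPKM values (0.02 to 1 RPKM, tolerance 0.1 read; 100% were whole) and used for counting intervals and voom. The 12925 genes whose highest library reached 1 RPKM were tested on the log2(RPKM + 0.5) scale, which understates differences of low genes. Limma (version 3.58.1 under R 4.3.3) was fitted to all 6 libraries, each group having its own coefficient, with moderation that follows the mean level. P-values were adjusted by Benjamini and Hochberg's method over all genes tested. The spread came from the 2 replicated groups (2 residual and 4.2 prior degrees of freedom). Scripts were tested on simulated data.

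The members and gene lists were chosen with earlier results of these data known. Named with a value per library were the 5 members with the highest and the 5 with the lowest log2 difference in each response and between the genotypes under IL-1α, if a group mean reached 5 RPKM. ITGAV, ITGA6, LAMB3, COL4A1 and COL4A2 were added after their values were seen. Of each other list, up to 2 genes with the widest genotype difference under IL-1α and a group mean of at least 5 RPKM there were named. Library-wide length trends were loess fits (span 0.4) on log10 length. Alternatives were pseudocounts of 0.1 and 1, no filter and 5 RPKM, median-of-ratios and quantile scaling, no variance trend, voom, length trend removal, a replicate block and each IL-1α library left out. Promoters matched RefSeq by symbol for 29 of 35 members. A gene that the naming rule includes is not reported here.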

Additional observations from a re-analysis of the deposited data

How the results depend on the processing

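The count of members passing was 0 in every setting tried for the IL-1α responses and the interaction. Between the genotypes under IL-1α it was 1 (LAMB1) with a 5 RPKM filter, where fewer genes were tested (adjusted p = 0.0234), and 1 with the replicate block (adjusted p = 0.0485). Over all genes the replicate block gave 81, 18 and 58 passing genes against 28, 9 and 20 in the 2 responses and the genotype comparison. The replicate numbers share only a number: the differences of the 2 pairs correlated at 0.0086 across genes. Counts over all genes ranged from 0 to 162, 0 to 65 and 0 to 88 over the settings, and for the interaction from 0 to 87, the last without a filter. With PBS, 3 members passed 2-fold with quantile scaling (FN1, COL17A1 and LAMB1) and 1 with the length trend removed (AGRN, -1.11).

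Rescaling moved the median of all genes in the wild-type response from -0.14 to -0.01 with either method. The members' median there was 0.45 with median-of-ratios scaling, 0.43 with quantile scaling and 0.0615 with the length trend removed. In the knockout it was 0.14 with the 5 RPKM filter and ranged from -0.0365 to 0.121 with 1 library left out. Between the genotypes under IL-1α it was -0.0705 with median-of-ratios scaling and -0.13 with the length trend removed. For the interaction these were -0.35 and -0.10, with -0.41 under quantile scaling and -0.29 to -0.10 with 1 library left out. With PBS it was 0.31 with quantile scaling and -0.12 with the length trend removed.

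Of the values of single members, 412 kept direction and side of the threshold, 2 crossed it (LAMB1, above) and 6 turned sign. Many of the 412 could not have turned sign. The filters, the fit without a variance trend and the replicate block leave the difference itself unchanged. So does leaving out a library of the other genotype, for an IL-1α response. The count is therefore no measure of stability. With 1 library left out, the knockout response ranged from -1.84 to 0.55 for TNC, from -0.26 to 1.64 for NID2 and from -0.19 to 1.40 for SPARC. The genotype difference under IL-1α ranged from -0.16 to 1.74 for NID2, from -0.30 to 1.28 for SPARC and from -0.0372 to 0.90 for FN1. Without knockout replicate 2 the knockout response was -0.0397 for FN1 and -0.19 for DST, and without wild-type replicate 1 the wild-type response was -0.31 for LAMB1. Leaving out 1 library leaves its group with 1, which is then assumed to vary like the other replicated group. Each member value rested on at least 115 reads.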
